A study of Homo sapiens with 16 samples.

Results

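The CCR4-NOT complex is the main enzyme that shortens the poly(A) tails of cytoplasmic mRNA, and 10 of its genes were followed here: CNOT1, CNOT2, CNOT3, CNOT4, CNOT6, CNOT7, CNOT8, CNOT9, CNOT10 and CNOT11. They were taken by gene symbol from the 60669 genes of both deposited tables, and all 10 were present once in each. All 10 also passed the filter on low values in the rRNA-depleted libraries, among 14789 genes tested, and all 10 had an adjusted p in the poly(A) table, among 14009 genes.

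In this complex CNOT1 is the long scaffold on which the other subunits assemble. The nuclease activity comes from a CCR4-type enzyme, CNOT6 or its paralog CNOT6L, and a CAF1-type enzyme, CNOT7 or its paralog CNOT8. CNOT2 and CNOT3 form the NOT module, CNOT9 is the CAF40 module that binds recruiting proteins, CNOT10 and CNOT11 form the N-terminal module, and CNOT4 is a ubiquitin ligase that associates loosely in human cells. N6-methyladenosine (m6A) is written on mRNA by a methyltransferase whose catalytic subunit is METTL3, and the reader YTHDF2 is known to bring methylated mRNA to CCR4-NOT by binding CNOT1.

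RNA came from HMC3, a human cell line described as microglial, either wild type (WT) or labelled METTL3 KO, a knockout of METTL3. From polyadenylated RNA, Smart-seq2 gave 5 libraries of each genotype, used here through the authors' deposited comparison. The other 6 libraries, 3 of each genotype, come from total RNA with rRNA removed and a strand-marking kit. Their values are TPM, the abundance of a gene's transcripts among all transcripts of a library, which corrects for gene length. No treatment is labelled in any group, and how the knockout was made and whether the line is 1 clone are not given in the sources used here.

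The rRNA-depleted libraries were shallow, with 266130 to 487243 recovered reads in the wild type and 512597 to 1267177 in the libraries labelled knockout, so depth moved with genotype. Knockout-labelled libraries 1 and 2 differed by no more than sampling noise (chi-square 1.02 per degree of freedom over 10120 genes with whole reads) and were counted as 1 sample, which leaves 3 samples against 2. METTL3 itself had 31.2, 31.6 and 25.4 TPM in wild-type and 39.2, 39.96 and 42.7 TPM in knockout-labelled libraries, so its mRNA does not check the label. Of 12 microglial marker genes 9 were listed at 0 in all 6 rRNA-depleted libraries, among them AIF1, CX3CR1, P2RY12, TMEM119, PTPRC and SPI1. The 6 fibroblast and mural markers summed to between 10226 and 12696 TPM in the wild type and between 911 and 1031 TPM in the libraries labelled knockout, most of it COL1A1. COL1A2 and PDGFRB made up nearly all the rest. COL3A1 reached at most 2.08 TPM and DCN 0.47 TPM in any library, and LUM was listed at 0, so the list was split. The part of these cell-state differences in the results below was not tested. For depth, a refit with reads thinned to the shallowest library is given below, and its part was otherwise not tested.

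In the rRNA-depleted libraries 7 of the 10 CCR4-NOT genes rose in the libraries labelled knockout and none fell: CNOT1, CNOT6, CNOT8, CNOT9, CNOT4, CNOT7 and CNOT2 (limma, adjusted p under 0.05 over all genes). CNOT3, CNOT10 and CNOT11 did not pass. Of all genes tested, 22.9% were called higher and 12.4% lower, and among the 8859 genes with at least 10 reads on average, as all members have, 39.3% were called higher, with 8 of the 10 members then past the threshold. The members' median log2 change was 1.44, beside a median of 0.41 over all genes, and all 10 lay above that all-gene median (62.4% of all genes tested had a change above 0). For 9 of the 10, no library of one label overlapped the other label in TPM, all 9 higher under the knockout label, which was so for 38.4% of all genes tested (58.4% in either direction). For CNOT10, among these 9, the nearest libraries of the labels held 11 reads each, so its reads do not separate the labels. The summed level of the 10 members was 169.8, 170.8 and 190.7 TPM in the wild type and 558, 543 and 419 TPM in the libraries labelled knockout, a ratio of means of 2.74. Median ratio scaling, which moved the all-gene median to 0.11, kept 4 of the 7 calls (CNOT1, CNOT6, CNOT8 and CNOT9), where 16% of all genes were higher. With the 6 libraries as separate samples 8 members passed, beside 31.3% of all genes higher, and with the replicate number as a block also 8, beside 27.3%. Without knockout-labelled library 3 the calls fell to 3 (CNOT1, CNOT8 and CNOT9), and without wild-type library 1 to 4.

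**Figure D1:**
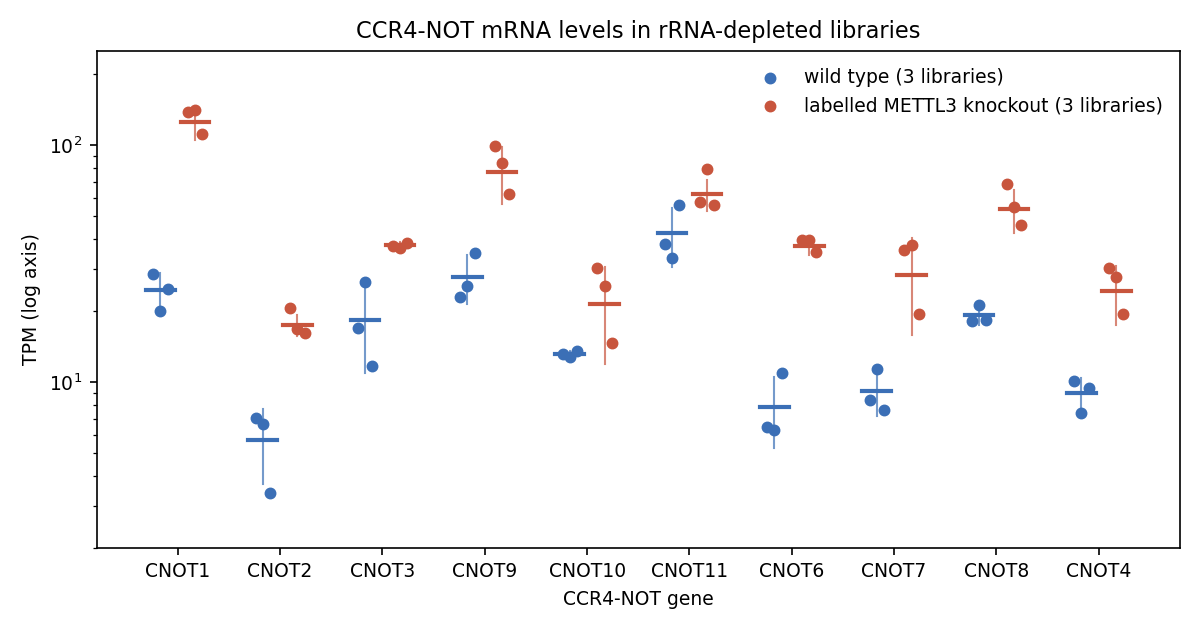
TPM (log axis) of the 10 CCR4-NOT genes in each rRNA-depleted library. Points are libraries, thick lines means and thin lines SD (3 wild-type samples, 2 knockout-labelled samples after libraries 1 and 2 were averaged). CNOT1 shows the widest gap between labels, and CNOT11 is the gene whose labels overlap.

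The scaffold changed most. CNOT1 (ENSG00000125107; chromosome 16, 58519951 to 58629886, minus strand, GRCh38) had 28.7, 20.03 and 24.8 TPM in wild-type and 138, 140.1 and 111 TPM in knockout-labelled libraries. The 3 knockout-labelled libraries were all far above the wild type, with no overlap. These values rest on 44, 21 and 45 reads in the wild type and 447, 555 and 187 reads in the libraries labelled knockout. On average CNOT1 went from 24.5 TPM ± 4.35 (SD, n = 3) up to 125 TPM ± 19.6 (SD, n = 2), which is 2.31 on the log2 scale (SE 0.21; limma adjusted p of 0.0024). CNOT1 passed at 0.05 under all 19 alternative fits, which vary scaling, filter, libraries and model, with log2 changes from 1.96 to 2.47. Measured on 10156 genes with a mean of at least 10 TPM, the genes whose profile over the 6 libraries lay nearest to that of CNOT1 were SRGN (root mean square difference 0.04 in centred log2(TPM + 1)), CLIC4 (0.06) and ARID5B (0.08). Their log2 changes were 2.27, 2.27 and 2.17, so nearness here largely follows the difference between labels, and shared regulation was not tested. In the authors' deposited table SRGN stood at 0.45 (adjusted p of 1.93e-05), CLIC4 at -0.09 (0.197) and ARID5B at 0.20 (0.296).

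Since the labels do not say whether reads were counted by strand, genes that overlap members were also read. SETD6 lies on the opposite strand and shares 1086 exon bases with CNOT1. SETD6 had 26.5, 22.4 and 28.3 TPM in the wild type and 8.58, 10.8 and 7.63 TPM in the libraries labelled knockout, so it went the opposite way from CNOT1. The small nucleolar RNA SNORA46, encoded in an intron of CNOT1, had at most 2 reads in any library, and SNORA50A, in another intron, was listed at 0. VPS37A, which shares 243 exon bases with CNOT7 on the opposite strand, was at 38.1 to 52.1 TPM in the wild type and 14.3 to 30.3 TPM in the libraries labelled knockout, also opposite to its neighbour. LENG1, which shares 548 exon bases with CNOT3 on the opposite strand, had 9.19, 20.1 and 11.6 TPM in wild-type and 13.04, 37.3 and 29.3 TPM in knockout-labelled libraries, so its means differed in the same direction as those of CNOT3, with overlapping labels. LINC01481, which shares 295 exon bases with CNOT2, had at most 4 reads in any library, and FAXDC2, which shares 163 with CNOT8, at most 7. CNOT10-AS1 and the pseudogenes CNOT7P1, CNOT7P2, CNOT6LP1 and CNOT4P1 were listed at 0 in all 6 libraries.

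Among the nucleases, the CCR4-type enzyme CNOT6 (ENSG00000113300; chromosome 5, 180494412 to 180578405, plus strand) had the steepest change. It had 6.45, 6.29 and 10.9 TPM in wild-type and 39.7, 39.9 and 35.3 TPM in knockout-labelled libraries. The 3 knockout-labelled values lay close together and far above the wild type, which rests on 4 to 12 reads per library. Its log2 change was 2.15 (SE 0.34; limma adjusted p of 0.0086), and it missed the threshold without knockout-labelled library 3 (limma adjusted p of 0.0563). CNOT6L, its paralog and not one of the 10, was low in the wild type at 1.51, 2.21 and 2.56 TPM from 2 to 4 reads, and reached 11.5, 12.3 and 11.03 TPM under the knockout label. CNOT6L rose by 2.02 on the log2 scale (SE 0.42; limma adjusted p of 0.0181), lost without knockout-labelled library 3 (limma adjusted p of 0.156). The level of CNOT6 relative to CNOT6L was 3.79 ± 0.82 (SD, n = 3) in the wild type and 3.28 ± 0.11 (SD, n = 2) in the libraries labelled knockout, with overlapping ranges.

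The CAF1-type enzymes CNOT8 and CNOT7 rose by similar amounts. CNOT8 (ENSG00000155508; chromosome 5, 154857553 to 154876793, plus strand) went from 18.02, 21.1 and 18.3 TPM to 68.2, 55.1 and 46.01 TPM. Its 3 wild-type libraries were within 3.1 TPM of each other, and the lowest knockout-labelled library was above them all. The log2 change was 1.43 (SE 0.22; limma adjusted p of 0.0076), and it passed under all 19 alternatives. CNOT7 (ENSG00000198791; chromosome 8) went from 8.41, 11.3 and 7.66 TPM to 36.1, 37.8 and 19.5 TPM. Knockout-labelled library 3 was the low one, closer to the wild type than libraries 1 and 2. Its log2 change was 1.48 (SE 0.39; limma adjusted p of 0.0367), and it missed the threshold without knockout-labelled library 3 (0.0611), wild-type library 1 (0.0783) or wild-type library 3 (0.077), and with median ratio scaling (0.0732; limma adjusted p in each case). CNOT8 was the more abundant of the pair per length in every library, with CNOT7 over CNOT8 at 0.47 ± 0.06 (SD, n = 3) and 0.51 ± 0.12 (SD, n = 2), ranges that overlap.

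CNOT9 (ENSG00000144580; chromosome 2, 218568580 to 218597080, plus strand), the docking subunit for several RNA-binding proteins, had 22.8, 25.4 and 35.1 TPM in wild-type and 99.5, 83.9 and 62.3 TPM in knockout-labelled libraries. Its groups did not overlap, and library 3 was the highest wild-type and the lowest knockout-labelled one. The log2 change was 1.44 (SE 0.27; limma adjusted p of 0.0146), past the threshold under all 19 alternatives.

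In the NOT module, CNOT2 (ENSG00000111596; chromosome 12, 70242994 to 70354993, plus strand) had the lowest mean of the members under both labels, though CNOT6 was lower in wild-type libraries 1 and 2 and CNOT10 in knockout-labelled library 3. CNOT2 had 7.09, 6.66 and 3.42 TPM in the wild type and 20.6, 16.8 and 16.2 TPM in the libraries labelled knockout. The groups did not overlap, and wild-type library 3 was the lowest. Its rise of 1.5 on the log2 scale (SE 0.43; limma adjusted p of 0.0455) was close to the threshold and failed 13 of the 19 alternatives. Leaving out any 1 library other than knockout-labelled library 2 lost the CNOT2 call, with limma adjusted p from 0.0508 without knockout-labelled library 1 to 0.181 without knockout-labelled library 3. CNOT3 (ENSG00000088038; chromosome 19, 54137717 to 54155708, plus strand), its partner, had 16.98, 26.4 and 11.7 TPM in wild-type and 37.7, 36.9 and 38.7 TPM in knockout-labelled libraries. The wild-type libraries were spread and the knockout-labelled ones nearly equal, with no overlap. CNOT3 did not pass, its log2 change being 1.08 (SE 0.37; limma adjusted p of 0.0725), but passed under 6 of the 19 alternatives, at 0.026 without wild-type library 2.

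The ubiquitin ligase CNOT4 (ENSG00000080802; chromosome 7, 135361795 to 135510127, minus strand) had 10.1, 7.39 and 9.41 TPM in wild-type and 30.2, 27.8 and 19.4 TPM in knockout-labelled libraries. Its groups did not overlap, with knockout-labelled library 3 nearest to the wild type. The log2 change was 1.32 (SE 0.33; limma adjusted p of 0.032), and it failed 8 of the 19 alternatives, among them leaving out any 1 wild-type library (0.0527 to 0.0592) or knockout-labelled library 3 (0.0957).

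The N-terminal module differed least. CNOT10 (ENSG00000182973; chromosome 3, 32685145 to 32773875, plus strand) had 13.2, 12.8 and 13.6 TPM in wild-type and 30.4, 25.4 and 14.7 TPM in knockout-labelled libraries. Libraries 1 and 2 of the knockout label were high, and library 3 was 1.1 TPM above the highest wild-type library. Knockout-labelled library 3 and that wild-type library held 11 CNOT10 reads each, so by reads the labels were not apart. CNOT10 had a log2 change of 0.59 with a 95% interval from -0.29 to 1.47 (limma adjusted p of 0.246), and passed under none of the 19 alternatives. CNOT11 (ENSG00000158435; chromosome 2, 101252802 to 101270316, plus strand) had 38.1, 33.4 and 55.9 TPM in wild-type and 57.7, 79.6 and 55.6 TPM in knockout-labelled libraries. The highest wild-type library lay above the lowest knockout-labelled one. CNOT11 had a log2 change of 0.56 with a 95% interval from -0.10 to 1.23 (limma adjusted p of 0.153), and it passed only without wild-type library 3 (limma adjusted p of 0.0493).

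The promoters of the gene with the steepest change that has an entry in the RefSeq promoter table (GRCh38.p14) and of the gene with the smallest are shown to set the ends of the range side by side. Entries were found for 8 of the 10 members, all but CNOT1 and CNOT7. Each sequence is the 250 bases before the RefSeq start, 5′ to 3′ on the gene's strand. For both genes that start differs from the GENCODE start given above, and the CNOT11 window runs past the GENCODE start. Capitals mark matches, on either strand, to the GC box, searched as GGGCGG, and to the CCAAT box, searched by those 5 letters. No match overlapped another.
CNOT6, chr5:180494129-180494378, plus strand: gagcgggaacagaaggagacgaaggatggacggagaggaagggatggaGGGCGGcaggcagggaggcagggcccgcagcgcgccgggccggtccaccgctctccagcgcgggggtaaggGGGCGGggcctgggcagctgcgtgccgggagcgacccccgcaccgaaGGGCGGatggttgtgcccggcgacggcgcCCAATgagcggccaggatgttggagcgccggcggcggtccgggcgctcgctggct
CNOT11, chr2:101252636-101252885, plus strand: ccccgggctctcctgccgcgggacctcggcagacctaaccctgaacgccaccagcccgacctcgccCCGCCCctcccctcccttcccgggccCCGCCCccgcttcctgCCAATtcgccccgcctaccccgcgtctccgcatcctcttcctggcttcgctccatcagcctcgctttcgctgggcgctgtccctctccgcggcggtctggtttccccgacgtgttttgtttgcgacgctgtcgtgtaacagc
Both windows are rich in G and C (75.2% for CNOT6 and 70% for CNOT11) and hold both motifs, so neither motif separates the gene that rose from the one that did not pass. The GC box was found for 7 of the 8 members with an entry and in 42.6% of 35116 promoters of that length, and the CCAAT box for 5 of the 8 and in 32%. The TATA box, searched as TATAAA on either strand, was found for none of the 8 and in 10.7% of promoters.

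The make-up of the complex's mRNA can be read within a library, where no scaling between libraries enters. As a share of the summed TPM of the 10 genes, CNOT1 was at 16.9%, 11.7% and 13.02% in the wild type and at 24.7%, 25.8% and 26.6% in the libraries labelled knockout. CNOT6 went from 3.80%, 3.68% and 5.72% to 7.11%, 7.35% and 8.43%. The shares of the N-terminal module were smaller in the libraries labelled knockout, with CNOT11 at 22.5%, 19.6% and 29.3% against 10.3%, 14.7% and 13.3%, and CNOT10 at 7.13% to 7.74% against 3.50% to 5.45%. These 4 genes had shares that did not overlap between labels, while the shares of the other 6 overlapped. Shares of a fixed sum are tied together, so a larger share of CNOT1 makes other shares smaller. The mean TPM of CNOT10 and CNOT11 was itself not lower under the knockout label (ratios of means 1.62 and 1.46, neither gene called). How often shares within other sets of genes do not overlap was not computed. CNOT9 made up 15.6% ± 2.56 (SD, n = 3) and 15.8% ± 1.26 (SD, n = 2), and CNOT8 made up 10.8% ± 1.39 and 11.1% ± 0.15. CNOT1 relative to CNOT11 was 0.75, 0.60 and 0.44 in the wild type and 2.39, 1.76 and 2.0 in the libraries labelled knockout, so the order of scaffold and N-terminal subunit reversed. These shares are descriptions, with no test, and they hold for mRNA and not for protein.

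**Figure D2:**
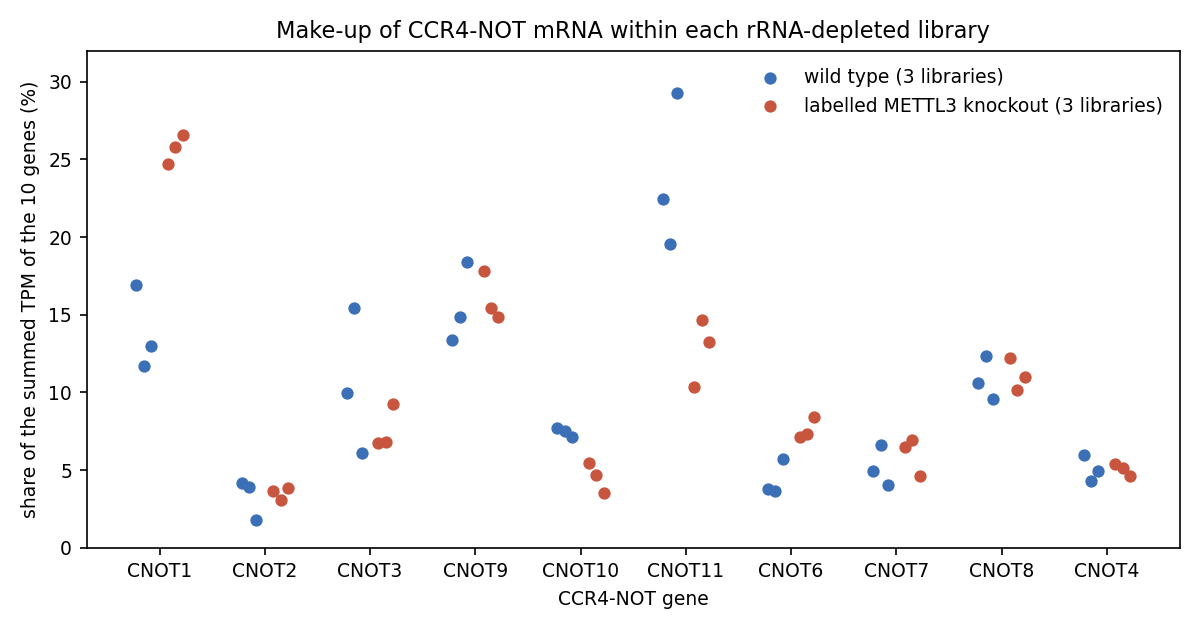
Share of the summed TPM of the 10 CCR4-NOT genes, in percent, taken by each gene in each rRNA-depleted library. Points are libraries. CNOT1 (11.7% to 16.9% against 24.7% to 26.6%) and CNOT6 are higher, and CNOT10 and CNOT11 lower, in the libraries labelled knockout, with no overlap.

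By mean level per length, CNOT11 (42.5 TPM) came first in the wild type, followed by CNOT9 (27.8), CNOT1 (24.5), CNOT8 (19.1), CNOT3 (18.3), CNOT10 (13.2), CNOT7 (9.14), CNOT4 (8.97), CNOT6 (7.88) and CNOT2 (5.72). Of these neighbours, CNOT10 and CNOT7 alone had ranges over libraries that did not overlap. In the libraries labelled knockout CNOT1 (125 TPM) came first, clear of CNOT9 (77.0), then CNOT11 (62.2), CNOT8 (53.8), CNOT3 (38.0), CNOT6 (37.6), CNOT7 (28.2), CNOT4 (24.2), CNOT10 (21.3) and CNOT2 (17.4). There CNOT8 and CNOT3 were also apart, and all other neighbours overlapped.

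The poly(A) comparison gave a different picture for these genes. In the authors' deposited table, made with the column names of DESeq2, 0 of the 10 had an adjusted p under 0.05, where 19.9% of all genes did and 9.55% did with a higher value. At an unadjusted p under 0.05 the authors' deposited table gave 2 of the 10, CNOT11 and CNOT9, beside 30% of all genes. That table does not say which genotype is the numerator. A positive value was read as higher in knockout, because both comparisons then shared their sign for 91.5% of the 177 genes that passed in each with a log2 change of 1 or more in size.

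The values in the authors' deposited table were all small. Their median was 0.21, against 0.02 over all genes of the authors' deposited table, and they ran from -0.17 for CNOT2 to 0.36 for CNOT3, with 9 of the 10 above 0, beside 51.5% of all genes. The authors' deposited table listed CNOT11 at 0.35 (SE 0.14) and an adjusted p of 0.0527, and CNOT9 0.28 (SE 0.11) with an adjusted p of 0.0603. CNOT1 had 0.22 (SE 0.11) with an adjusted p of 0.168 in the authors' deposited table, and CNOT6 had 0.22 (SE 0.23) with 0.572. The values in the authors' deposited table were 0.21 for CNOT8, 0.12 for CNOT7, 0.18 for CNOT4 and 0.15 for CNOT10. For CNOT7, the member with the smallest SE in the authors' deposited table (0.07), the 95% interval ran from -0.02 to 0.26. CNOT3 and CNOT6 had mean normalized counts of 12.7 and 26.3 in the authors' deposited table, the lowest of the 10, and the widest intervals.

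Set side by side, the 95% interval from the rRNA-depleted libraries lay wholly above that of the authors' deposited table for 7 of the 10 genes, beside 22.5% of 12498 genes measured in both. These are the same 7 that were called. Both counts come from the same fit and the deposited values were small, so the match adds no separate support to the calls. The intervals also differ in scale and in number of samples. For CNOT1 the interval was 1.77 to 2.85 in the rRNA-depleted libraries, and its upper bound was 0.44 in the authors' deposited table. After the median of all genes was subtracted from each, 4 of the 10 stayed apart (CNOT1, CNOT2, CNOT6 and CNOT8), beside 14.5% of all genes. CNOT11 was the nearest to equal in both, at 0.56 and, in the authors' deposited table, 0.35. The difference between library types was not tested, because no value for a single poly(A) library was used here.

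**Figure D3:**
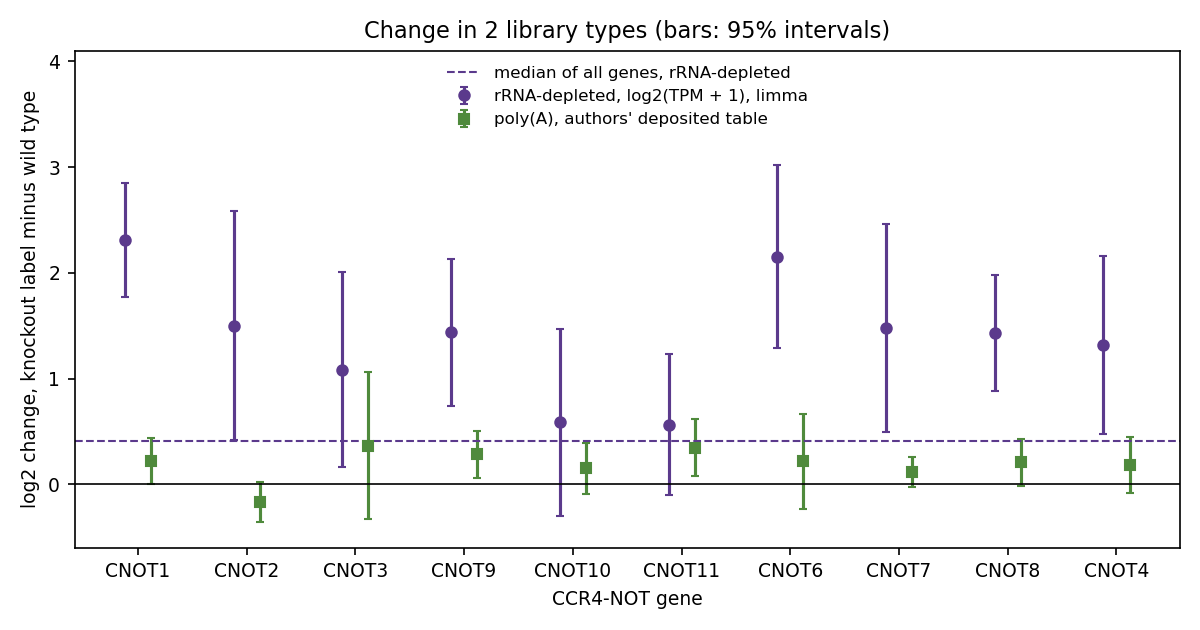
Log2 change of each CCR4-NOT gene, knockout label minus wild type, in the rRNA-depleted libraries (circles, on the log2(TPM + 1) scale) and in the authors' deposited poly(A) table (squares), with 95% intervals. The dashed line is the median of all genes in the rRNA-depleted libraries, 0.41. The squares lie between -0.17 and 0.36, and 7 of the 10 circles have intervals wholly above theirs.

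In the rRNA-depleted libraries the change moved with GC content, which was low in most but not all members. Log2 change fell with the GC content of a gene's longest transcript over all genes (Spearman correlation -0.37 across 14669 genes, which are not independent), from a median of 1.23 in the lowest of 10 bins to -0.44 in the highest. Of the 10 members, 8 had a GC content under the median of tested protein-coding genes, 48.7%. CNOT2 was at 34.1%, CNOT7 at 35.7% and CNOT4 at 38.8%, while CNOT3 at 59.1% and CNOT11 at 49.6% lay above that median. With the trend on GC content removed from each library, 5 members passed, beside 21.3% of all genes called higher: CNOT1 (1.98), CNOT3 (1.59), CNOT6 (1.48), CNOT9 (1.27) and CNOT8 (1.04). The members' median log2 change was then 0.84 in place of 1.44, and 9 of the 10, all but CNOT10, lay above the all-gene median of 0.47. CNOT2 then had a log2 change of 0.52, CNOT7 of 0.59 and CNOT4 of 0.64, none of them past the threshold (limma adjusted p of 0.32, 0.201 and 0.128). TNKS1BP1, a protein that binds CCR4-NOT and no member here, has a GC content of 61.4% and fell by 0.99 on the log2 scale, from 157.5, 162.1 and 157.4 TPM to 76.4, 83.9 and 78.6 TPM (limma adjusted p of 0.0028). With the GC trend removed its log2 change was -0.38 and did not pass (limma adjusted p of 0.07).

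**Figure D4:**
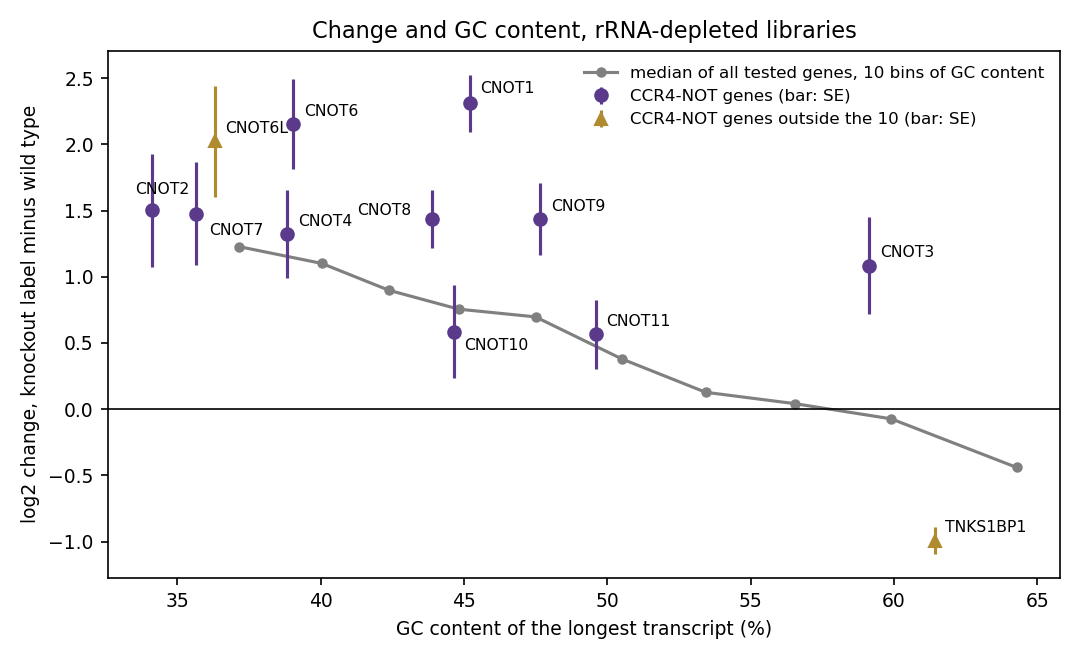
Log2 change, knockout label minus wild type, against the GC content of the longest transcript in percent. Grey points are medians of all tested genes in 10 bins, circles are the 10 CCR4-NOT genes and triangles CNOT6L and TNKS1BP1, with SE. CNOT1, CNOT6 and CNOT3 lie furthest above the grey line, CNOT10 and CNOT11 on or near it.

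Transcript length and the pentamer GGACT, the commonest core of the m6A consensus, were also read on the sense strand of each longest transcript. The members' median length was 4496 bases, beside 3475 for tested protein-coding genes, and 7 of the 10 were longer than that. GGACT occurred 11 times in CNOT1, 9 in CNOT7, 8 in CNOT6, 5 in CNOT9 and 3 in CNOT8, and not at all in CNOT3 and CNOT11. Per kilobase the members' median was 0.91, beside 0.93 for tested protein-coding genes, and 5 of the 10 lay above that value. A match is only letters in a sequence: no m6A was measured in these libraries.

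Proteins that bring CCR4-NOT to mRNA, or bind it as adaptors, were measured in 20 genes, of which 19 were tested in the rRNA-depleted libraries. Of these, 15 rose and none fell, beside 22.9% of all genes higher and 12.4% lower, and the median log2 change was 1.45, beside 0.41 over all genes. PUM2, which binds Pumilio elements in mRNA, rose by 2.73 on the log2 scale (SE 0.22; limma adjusted p of 0.0018), averaging 14.8 TPM ± 2.99 (SD, n = 3) for wild type and 103 TPM ± 1.15 (SD, n = 2) under the knockout label. BTG1, a small protein that binds the CAF1-type nucleases, rose by 2.53 (SE 0.48; limma adjusted p of 0.0145, and 0.0717 without knockout-labelled library 3). The authors' deposited table also called BTG1 higher, at 1.54 (SE 0.45) with an adjusted p of 0.005. The authors' deposited table called 2 of the 18 genes of this list with a value higher, BTG1 and TOB2, and none lower. Of all genes there, 9.55% were called higher, so this count was near the background.

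Of 5 m6A readers, 3 rose in the rRNA-depleted libraries and none was called lower, with a median log2 change of 1.78. Over all genes 22.9% were called higher, or 39.3% of those with at least 10 reads on average. YTHDF1 rose by 1.37 on the log2 scale (SE 0.20; limma adjusted p of 0.0065). YTHDC1 went the other way, at -0.36 (SE 0.15), with labels that did not overlap, but did not pass (limma adjusted p of 0.127). YTHDC2, a reader with a helicase domain, rose by 2.02 on the log2 scale (SE 0.35; limma adjusted p of 0.0112, and 0.0928 without knockout-labelled library 3). YTHDF3, a cytoplasmic reader, rose by 1.78 (SE 0.24; limma adjusted p of 0.0053). YTHDF3 was the 1 reader called in the authors' deposited table, at 0.48 (SE 0.12) with an adjusted p of 0.0012. Of all genes there, 9.55% were called higher. YTHDF2, the reader that binds CNOT1, had a log2 change of 1.83 but an SE of 0.59 and did not pass (limma adjusted p of 0.0641). In the authors' deposited table YTHDF2 stood at -0.16 (SE 0.08) with an adjusted p of 0.172.

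Other deadenylases and poly(A)-binding proteins were mixed, with 4 of 12 higher, 1 lower and a median log2 change of 0.71. Of all genes tested, 22.9% were called higher and 12.4% lower. PABPC1, the cytoplasmic protein that coats poly(A) tails, rose by 2.02 on the log2 scale (SE 0.12; limma adjusted p of 0.0012), averaging 300.2 TPM ± 29 (SD, n = 3) for wild type and 1218 TPM ± 110 (SD, n = 2) under the knockout label. The authors' deposited table also called PABPC1 higher, at 0.34 (SE 0.05) with an adjusted p of 1.32e-09. PAN3, which guides the other cytoplasmic deadenylase PAN2, rose by 1.93 (SE 0.43; limma adjusted p of 0.023, and 0.106 without knockout-labelled library 3). The nuclear poly(A)-binding protein PABPN1 fell by 1.93 on the log2 scale (SE 0.13; limma adjusted p of 0.0013), from 309.8 ± 34.8 TPM to 80.4 ± 4.16 TPM, and stood at -0.10 (SE 0.31) in the authors' deposited table.

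The decapping and 5′ decay factors, which act after the tail is removed, had 7 of 21 genes higher and 1 lower. Over all genes tested, 22.9% were called higher and 12.4% lower. The median log2 change of these factors was 0.80. LSM3, part of the ring that binds shortened tails, rose by 2.61 on the log2 scale (SE 0.28; limma adjusted p of 0.0033), while the authors' deposited table had LSM3 lower, at -0.45 (SE 0.12) with an adjusted p of 0.0026. PATL1, a decapping scaffold, rose by 2.36 (SE 0.22; limma adjusted p of 0.0024). GIGYF1, a translational repressor, fell by 0.59 on the log2 scale (limma adjusted p of 0.0136), but stood at -0.01 with the GC trend removed, and at a limma adjusted p of 0.0926 without knockout-labelled library 3. The authors' deposited table called 1 of the 21 genes of this list higher and 4 lower, beside 19.9% of all genes in either direction.

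Of 16 genes of the exosome and other 3′ decay, 3 rose and 4 fell, beside 22.9% of all genes higher and 12.4% lower. The median log2 change of this list, 0.41, equalled that of all genes to 2 decimals. SKIC3, a scaffold of the cytoplasmic Ski complex, rose by 2.15 on the log2 scale (SE 0.33; limma adjusted p of 0.0081). EXOSC1 rose by 1.95 (limma adjusted p of 0.0418), but missed the threshold under 9 of 19 alternatives, at 0.0713 without wild-type library 3 and 0.176 without knockout-labelled library 3. The exosome subunits EXOSC3 and EXOSC6 fell by 2.18 and 1.81 on the log2 scale (limma adjusted p of 0.0012 and 0.0074), and stood at -0.20 and 0.26 in the authors' deposited table, with adjusted p of 0.405 and 0.81. Of the 16 genes that table called 1 higher and 2 lower, beside 19.9% of all genes in either direction. The CCR4-NOT genes, with 7 of 10 higher in the rRNA-depleted libraries, thus stood beside 15 of 19 recruiters and 3 of 5 readers. Other deadenylases and poly(A)-binding proteins had 4 of 12 higher, decapping factors 7 of 21 and 3′ decay 3 of 16. Of all genes 22.9% were called higher, or 39.3% of those with at least 10 reads on average. The counts for other deadenylases and poly(A)-binding proteins, decapping factors and 3′ decay were near or under that background. The differences between lists were not tested.

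The plot of settings shows which of the calls held. CNOT1, CNOT8 and CNOT9 passed under all 19 alternatives and CNOT6 under 18, whereas CNOT4 passed under 11, CNOT7 under 10 and CNOT2 under 6. With reads thinned to the shallowest library the log2 change was 2.22 for CNOT1, 2.06 for CNOT6, 1.33 for CNOT8 and 1.42 for CNOT9, close to the values at full depth. On thinned reads CNOT2 (1.46), CNOT4 (1.17) and CNOT7 (1.41) did not pass (limma adjusted p of 0.124, 0.0749 and 0.126).

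**Figure D5:**
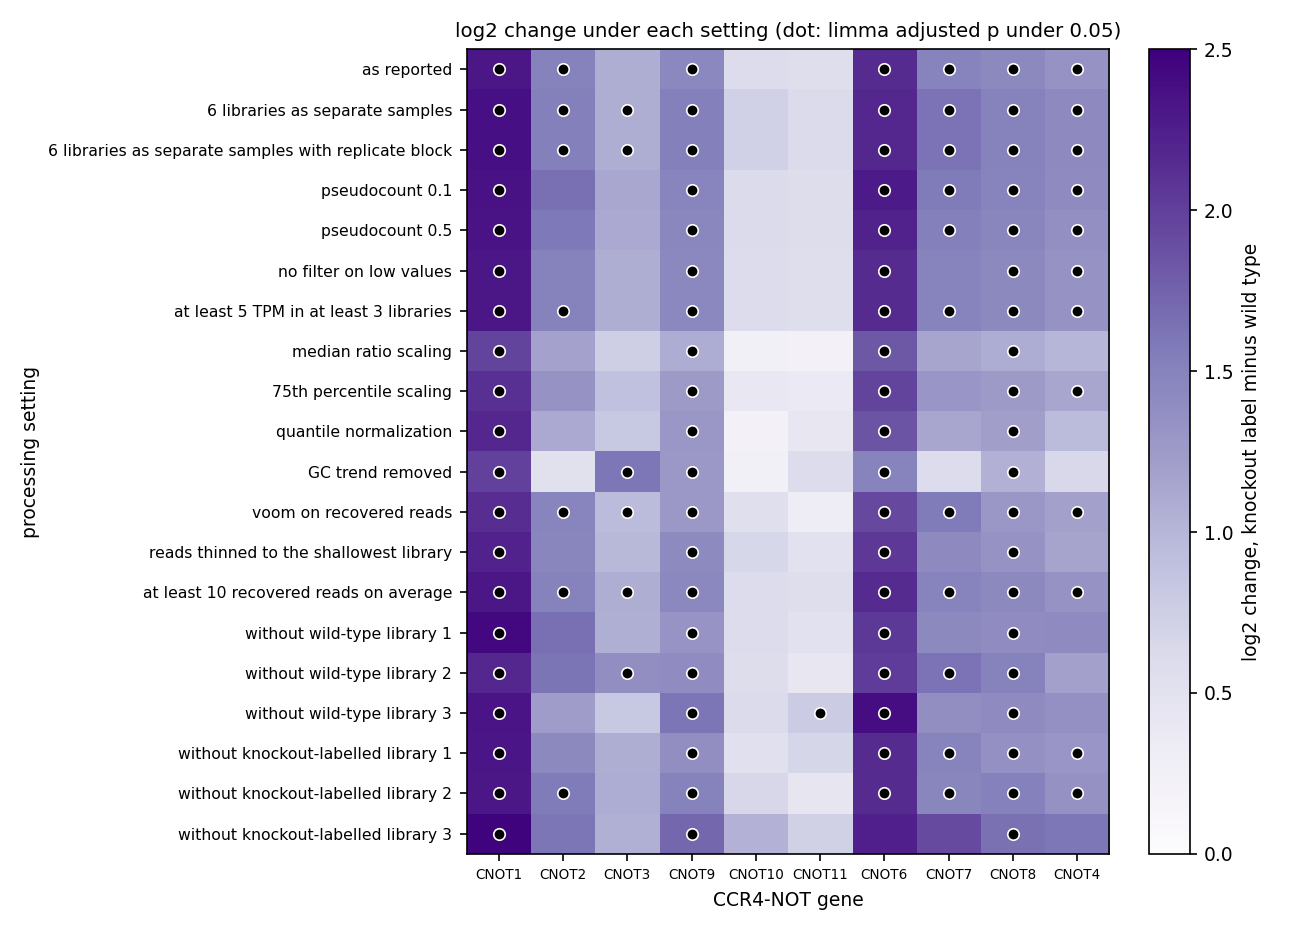
Log2 change of each CCR4-NOT gene (columns, colour) under each processing setting (lines), knockout label minus wild type, with a dot where the limma adjusted p was under 0.05. CNOT1, CNOT8 and CNOT9 carry a dot on every line, CNOT6 on all but 1, and CNOT10 on none.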

How the data were processed

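Per the submitters' processing notes Trimmomatic, STAR and DESeq2 were used with the build hg38; roles, counting tool, annotation and use of strand are not given in the sources used here. The authors deposited 1 comparison of the poly(A) libraries. It holds, per the file headers, each gene's mean normalized count (a signal averaged over all libraries), its log2 fold change and SE, a Wald score and p-values before and after adjustment. It was described, not retested, and its 95% intervals are the change ± 1.96 SE. Values of the rRNA-depleted libraries were deposited as TPM.

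Gene lengths, positions and GC content are those of GENCODE 29 (GRCh38), with a match for 93.8% of gene identifiers. TPM times length gave whole reads, to within 0.02 reads, for 90.9% of values above 0. CNOT3 gave whole reads with a length of 6677 in place of 6880 bases. Knockout-labelled libraries 1 and 2 were averaged because genes with whole reads did not differ beyond sampling noise (chi-square p of 0.065); over all genes with rounded reads the p was 1.99e-07. Whether replicates were separate cultures is not labelled, so p-values measure only the spread between these samples. Reads carry no stated molecular identifiers, and in RNA from a whole culture fewer cells with a transcript and fewer copies per cell cannot be told apart.

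limma 3.58.1 in R 4.3.3 (lmFit, eBayes with trend) was fitted on log2(TPM + 1), a scale that understates changes of low genes, over genes that reached 1 TPM in 3 or more libraries, with Benjamini-Hochberg adjustment over all of them at 0.05. On simulated reads over 14034 genes, 29 of 110 genes changed by 2 on the log2 scale with at least 10 reads on average were recovered in the right direction. Over all read levels 30 of the 200 changed genes were recovered. The step also called 13 unchanged genes, all under 10 reads on average, so the threshold of 0.05 was not held over all genes. It called 0 genes when none was changed. The simulation changed far fewer genes than were called in the data. Its reads were drawn with an assumed spread, the same for all genes. The averaged knockout-labelled libraries were drawn as separate samples there, so these counts do not give the error rate in the data. Python 3.11.15, numpy 2.4.6, pandas 2.3.3, scipy 1.17.1 and matplotlib 3.10.9 were used for the rest.

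Members and lists were chosen with earlier results of these data known. Named genes are METTL3, the members, CNOT6L, TNKS1BP1, the 3 genes nearest to CNOT1, and from each of 5 lists the 2 genes with the largest change in each direction among those past the threshold without overlap. TOB2 and the readers and overlapping genes outside this rule were named after their values were seen. Markers of neurons, astrocytes, oligodendrocytes and endothelium summed to at most 11.9, 4.59, 2.33 and 1.59 TPM in any library. Alternatives were other pseudocounts, filters, scalings, models, depths and left-out libraries.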

Additional observations from a re-analysis of the deposited data

How the results depend on the processing

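All 10 CCR4-NOT genes kept a positive log2 change under every alternative run. The count of members called, 7 as reported, was 4 with median ratio scaling, 4 with quantile normalization, 4 with reads thinned to the shallowest library and 3 at an adjusted p under 0.01, and ran from 3 to 7 when single libraries were left out (3 without knockout-labelled library 3, where the lone sample of that label is assumed to vary like the others; cause not tested). The count over all genes, 5220 as reported, was 2242 at an adjusted p under 0.01 and 2027 to 4922 with single libraries left out. Of these calls 64.8% were higher as reported, 48.6% with median ratio scaling, 52.1% with quantile normalization and 52.4% with voom on recovered reads. Called higher were 22.9% of all genes as reported, 16% with median ratio scaling and 17.9% with quantile normalization. With reads thinned to the shallowest library 2035 of 13221 genes were called higher, and 1401 of 14789 at an adjusted p under 0.01. Without wild-type library 1, where 4 members passed, 3050 of 14132 genes were called higher. The all-gene count of higher calls, 3382 as reported, thus also fell in these settings. With the 6 libraries as separate samples 8 members passed, and with the replicate number as a block also 8. Same-numbered libraries did not deviate together (correlations 0.02, -0.02 and 0.01), and wild-type library 1 was closest to knockout-labelled library 2, so the numbers do not pair the samples. METTL3 passed in the fit of 6 libraries without the block (limma adjusted p of 0.0486). The filter of at least 10 reads on average was added after seeing the data and gave 8 members. Wild-type levels of CNOT2, CNOT4, CNOT6, CNOT7, CNOT8 and CNOT10 rest on 4 to 14 reads per library, which limits their precision.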
